A study of Mus musculus with 8 samples.

Results

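The surrogate light chain and pre-B-cell receptor (pre-BCR) core was taken as 10 genes, Igll1, Vpreb1, Vpreb2, Vpreb3, Cd79a, Cd79b, Ighm, Blnk, Syk and Btk, of 18193 genes that have a probe set of their own on the array. Members were all probe sets that the platform annotation gives to 1 of these symbols, which found 23 probe sets for 9 genes, and 1 further probe set that it gives to Vpreb1 and Vpreb2 together. Vpreb2 has no probe set of its own here, so it was measured only through that shared probe set. The cells were bone marrow pro-B cells of Fraction B, sorted as B220+CD43+HSA+BP-1-, of mice aged 2 to 3 weeks by the sample labels and 3 weeks by the design text. Of 8 mice, 4 were MenF/F controls, which carry floxed alleles of the menin gene and no Cre, and 4 were Rag1-cre;MenF/F (menin-deficient). Both groups carried the floxed alleles, and Cre was present in every menin-deficient mouse and in no control, so an effect of Cre and one of menin loss cannot be told apart. RNA was amplified once before labelling and each mouse gave 1 expression array. In a sorted bulk sample, fewer cells of a type and less RNA per cell cannot be told apart.

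The pre-BCR is the first antigen receptor form of the B lineage. It joins the immunoglobulin μ heavy chain (Ighm) to a surrogate light chain made of λ5 (Igll1) and VpreB (Vpreb1 or Vpreb2), which stand in for a light chain that is not yet rearranged. The heterodimer of Igα (Cd79a) and Igβ (Cd79b) carries the signal, which passes to the tyrosine kinase SYK, the adaptor SLP-65 (Blnk) and the kinase BTK, and a working pre-BCR lets pro-B cells pass to the pre-B stage. Menin, encoded by Men1, is a chromatin-associated partner of MLL histone methyltransferases.

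Sequences of the region before the annotated transcription start were read for the members from RefSeq (GRCm38.p6), which gave a window for 8 of 10 members and none for Cd79b and Ighm. Vpreb1 and Vpreb2 are near-identical copies, and a stretch of both is shown because the array measured them partly with 1 shared probe set. The stretch is the best ungapped match between the 250 bases before each start, so high identity follows in part from that choice. It holds 103 bases with 1 mismatch (99.0% identity). The mismatch is printed in capitals and is G12T when positions are counted from 1 at the 5′ end of the Vpreb1 stretch. The stretch lies before the annotated starts and does not show what the shared probe set matches. It lies at chr16:16869259-16869361, - strand, for Vpreb1 and at chr16:17980315-17980417, + strand, for Vpreb2.
Vpreb1: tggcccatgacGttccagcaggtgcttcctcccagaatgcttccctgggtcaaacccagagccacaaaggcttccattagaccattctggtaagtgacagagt
Vpreb2: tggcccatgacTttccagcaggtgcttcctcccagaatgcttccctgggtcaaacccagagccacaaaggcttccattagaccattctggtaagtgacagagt
On chromosome 16, Igll1 and Vpreb1 are next to each other in the RefSeq gene order with 0 genes between them, and 52 genes lie between Vpreb1 and Vpreb2.

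The 250 bases before the start of Igll1, Vpreb3 and Blnk are shown because these 3 members were called higher in menin-deficient cells. Capitals mark E-boxes that E proteins such as E2A bind (CAGGTG or CAGCTG, either strand) and the octamer ATTTGCAT (either strand), a motif of B-cell promoters. These motifs do not overlap here. The windows lie at chr16:16863986-16864235, - strand, for Igll1, at chr10:75948050-75948299, + strand, for Vpreb3 and at chr19:40994222-40994471, - strand, for Blnk.
Igll1: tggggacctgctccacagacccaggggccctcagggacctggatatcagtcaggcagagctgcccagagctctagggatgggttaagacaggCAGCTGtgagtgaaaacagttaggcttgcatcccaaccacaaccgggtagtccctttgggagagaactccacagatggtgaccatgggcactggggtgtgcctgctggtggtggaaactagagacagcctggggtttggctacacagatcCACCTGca
Vpreb3: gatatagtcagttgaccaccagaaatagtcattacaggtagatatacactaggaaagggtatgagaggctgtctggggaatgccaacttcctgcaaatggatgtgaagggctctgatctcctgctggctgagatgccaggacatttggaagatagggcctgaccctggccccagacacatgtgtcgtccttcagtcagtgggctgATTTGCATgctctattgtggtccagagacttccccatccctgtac
Blnk: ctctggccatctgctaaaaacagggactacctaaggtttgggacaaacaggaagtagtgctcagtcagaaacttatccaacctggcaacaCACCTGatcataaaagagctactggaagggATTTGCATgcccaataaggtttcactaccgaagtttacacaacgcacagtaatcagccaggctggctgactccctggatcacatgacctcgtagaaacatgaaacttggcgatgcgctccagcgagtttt
Igll1 has both E-boxes, 158 and 8 bases before the start. Vpreb3 and Blnk each have 1 octamer, 45 and 130 bases before the start, and Blnk also has an E-box. CAGGTG was also found in the windows of members not called higher at the gene level, Vpreb1, Cd79a and both Syk windows. The window of Vpreb2 held it too, while Btk had none of these motifs. Of 32851 windows of the same length, 17.2% hold CAGGTG, 13.0% CAGCTG and 1.6% the octamer on either strand. The consensus of EBF1, a known activator of surrogate light chain genes, was searched as TCCC and GGGA with 2 bases of any kind between them. It was found in 0.779% of all windows and in no window of a member, which says only that these letters are not there.

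As a check of the labels, Men1 was lower in all menin-deficient arrays (log2 difference -1.39, SE 0.18, limma adjusted p = 0.0039). Values are the deposited log2 signals, and their lowest level is 2.08. Pairs of arrays of the same group correlated at 0.991 to 0.996, and pairs of different groups at 0.985 to 0.991. Over the fixed list of pro-B markers, 3 of 12 tested genes passed the threshold (25%), where 21.3% of all tested genes did. Dntt (0.35) and Cd93 (0.36) were higher and Rag1 (-0.28) was lower in menin-deficient arrays. The list's mean level ran from 13.3 to 13.6 in control and from 13.5 to 13.7 in menin-deficient arrays. The sort genes Ptprc, Cd24a and Spn had control means of 14.70, 16.07 and 12.63. Enpep, which encodes the BP-1 antigen that the sort selects against, was at 11.40 in control and 11.69 in menin-deficient arrays (difference 0.29, SE 0.45, limma adjusted p = 0.684). By Xist and Eif2s3y, 1 control (replicate 3) and 2 menin-deficient mice (replicates 1 and 2) were male. The differences between the 3' and 5' control probe sets of actin ran from 0.86 to 1.11 in control and from 0.82 to 0.99 in menin-deficient arrays.

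The surrogate light chain genes differed unevenly between the groups. The probe set shared by Vpreb1 and Vpreb2 was the clearest riser among the members, at 1.43-fold higher in menin-deficient cells, and Vpreb3 was 1.34-fold and Igll1 1.30-fold higher, while the probe set of Vpreb1 alone was level. A gene was called where limma's p, adjusted by Benjamini-Hochberg over all tested features, was under 0.05.

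Igll1 encodes λ5, the constant-like part of the surrogate light chain. On its bright probe set (1420176_x_at) the control arrays held log2 values of 15.89, 15.88, 15.44 and 15.87, and the menin-deficient arrays held 16.09, 16.14, 16.23 and 16.16. The groups did not overlap, and control replicate 3 stood below the other 3 controls. The difference was 0.38 (SE 0.11, 95% interval 0.13 to 0.64, limma adjusted p = 0.0457 among genes). The call is marginal, and among all probe sets the adjusted p was 0.0599. Without control replicate 3 the difference was smaller, at 0.27, and remained past the threshold (limma adjusted p = 0.0121), whereas leaving out any of the other 7 arrays lost the call. That replicate was the only male control, and with sex as a covariate the difference was 0.44 (limma adjusted p = 0.0168). The suffix of this probe set means that its probes can match several transcripts. The other Igll1 probe set (1420177_at) lay between 2.19 and 2.56 on all arrays, near the lowest value of the table, and carries no usable level.

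Vpreb1 encodes the variable-like part. Its own probe set (1449869_at) held 15.51, 15.66, 15.84 and 15.54 in control and 15.65, 15.65, 15.66 and 15.69 in menin-deficient arrays. The menin-deficient values all lay inside the control range, and their SD was 0.021 against 0.147 among controls. The difference was 0.02 (SE 0.07, 95% interval -0.15 to 0.20, limma adjusted p = 0.853). On the deposited scale, a change of more than about 0.20 in either direction thus lies outside the interval. The shared probe set (1422416_s_at) gave another picture. It held 14.98, 15.05, 14.96 and 15.02 in control and 15.49, 15.56, 15.52 and 15.49 in menin-deficient arrays. Its groups were far apart relative to their SDs of 0.040 and 0.034, with a difference of 0.51 (SE 0.04, 95% interval 0.43 to 0.60, limma adjusted p = 0.0012 with every probe set tested). With arrays centred on the median of the tested genes, the difference was 0.39 (limma adjusted p = 0.0082). On each array the shared set minus the Vpreb1 set gave -0.53, -0.61, -0.88 and -0.52 in control and -0.15, -0.08, -0.15 and -0.20 in menin-deficient arrays. This within-array value, chosen after the values were seen, thus rose by 0.49 with no overlap, and any offset common to an array cancels in it. How much of the shared signal comes from Vpreb2 was not tested.

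Vpreb3 encodes a VpreB-like protein of the endoplasmic reticulum that associates with μ heavy chain precursors and is not part of the surface receptor. Its only probe set (1422921_at) held 12.92, 12.67, 12.80 and 12.88 in control and 13.08, 13.25, 13.44 and 13.20 in menin-deficient arrays. Every menin-deficient value lay above every control value. The difference was 0.42 (SE 0.09, 95% interval 0.21 to 0.63, limma adjusted p = 0.0186 among genes and 0.0260 among probe sets). After centring on the median tested gene it was 0.30 (limma adjusted p = 0.0538), and without menin-deficient replicate 2 it was 0.42 (limma adjusted p = 0.0532).

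Set against each other within an array, Igll1 minus Vpreb1 was 0.38, 0.22, -0.39 and 0.34 in control and 0.44, 0.50, 0.56 and 0.47 in menin-deficient arrays. The groups did not overlap, and the mean difference of 0.36 had an exact two-sided permutation p of 0.0286, the smallest that 4 against 4 arrays allow, and 0.0857 after adjustment over 3 such comparisons. Much of it rests on control replicate 3, which was the lowest in Igll1 and the highest in Vpreb1: without it the difference was 0.18.

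**Figure D1:**
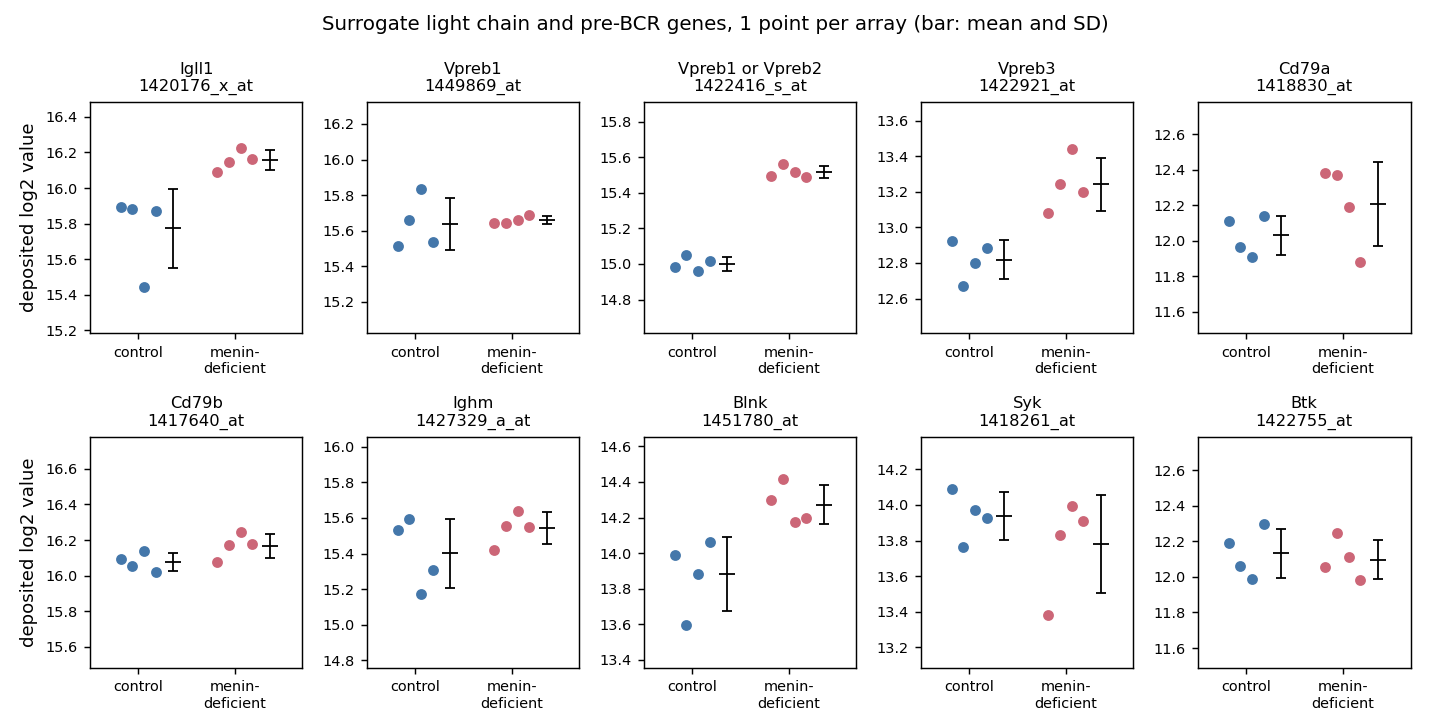
Deposited log2 values of the brightest probe set of 9 members and of the probe set shared by Vpreb1 and Vpreb2, 1 point per array (blue control, red menin-deficient), with the mean and SD of each group of 4 beside them. Each panel spans the same range of log2 units. The groups do not overlap for Igll1, the shared Vpreb set, Vpreb3 and Blnk, and control replicate 3 is the low point of Igll1 at 15.44.

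Among the heavy chain and the signalling heterodimer no difference passed the threshold. Ighm, the μ heavy chain constant region, has 11 probe sets of its own. Of these, 4 passed the filter that removes dim sets, and only 2 of those 4 were bright. The brighter (1427329_a_at) held 15.53, 15.59, 15.17 and 15.31 in control and 15.42, 15.55, 15.64 and 15.55 in menin-deficient arrays, with overlapping groups (difference 0.14, SE 0.10, 95% interval -0.10 to 0.38, limma adjusted p = 0.365). The other bright set (1427351_s_at) ran from 14.19 to 14.90 in control and from 14.35 to 14.72 in menin-deficient arrays, with a difference of -0.01 (SE 0.16, limma adjusted p = 1.00). A dimmer Ighm set (1427870_x_at) differed by -0.15 (limma adjusted p = 0.442), and the other 8 lay under 2.5 in both groups' means. A further 4 probe sets that the annotation gives to Ighm together with immunoglobulin variable or γ segments were not counted.

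Cd79a held 12.11, 11.97, 11.91 and 12.14 in control and 12.38, 12.37, 12.19 and 11.88 in menin-deficient arrays. Menin-deficient replicates 1 to 3 were above all controls and replicate 4 below all of them, so the groups overlapped (difference 0.18, SE 0.12, 95% interval -0.11 to 0.46, limma adjusted p = 0.345). Cd79b was among the steadiest members, at 16.09, 16.06, 16.14 and 16.02 in control and 16.08, 16.17, 16.24 and 16.18 in menin-deficient arrays (difference 0.09, SE 0.05, 95% interval -0.02 to 0.20, limma adjusted p = 0.217). On the deposited scale, its interval leaves room for a rise of up to 0.20 and hardly any fall. Centring on the median tested gene turned the difference of Cd79b to -0.03 (SE 0.06) and that of Vpreb1 to -0.10 (SE 0.08). The limits read from the deposited intervals thus do not carry over to that scale. Within arrays, Cd79a minus Cd79b did not differ detectably (0.08, exact two-sided permutation p = 0.60, also 0.60 after adjustment over 3 comparisons).

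Among the signal transducers, Blnk was higher in menin-deficient cells, Btk was level and the Syk probe sets disagreed. Blnk encodes SLP-65 (also BLNK), the adaptor that brings SYK together with BTK and phospholipase Cγ2. It held 13.99, 13.59, 13.88 and 14.06 in control and 14.30, 14.42, 14.18 and 14.20 in menin-deficient arrays, with no overlap, and control replicate 2 was the lowest. The difference was 0.39 (SE 0.11, 95% interval 0.13 to 0.65, limma adjusted p = 0.0466 among genes and 0.0610 among probe sets), a 1.31-fold rise that is as marginal as that of Igll1. It did not pass after centring on the median tested gene (0.26, limma adjusted p = 0.127), nor without control replicate 1 or 3 or any menin-deficient array. Btk, the X-linked TEC-family kinase, held 12.19, 12.06, 11.99 and 12.30 in control and 12.05, 12.24, 12.11 and 11.98 in menin-deficient arrays (difference -0.04, SE 0.09, 95% interval -0.24 to 0.17, limma adjusted p = 0.808).

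Syk encodes the kinase that binds the phosphorylated tails of Igα and Igβ, and it has 4 probe sets. The brightest (1418261_at) held 14.09, 13.76, 13.97 and 13.93 in control and 13.38, 13.83, 13.99 and 13.91 in menin-deficient arrays. Menin-deficient replicate 1 was low and the others lay within the control range (difference -0.16, SE 0.14, 95% interval -0.49 to 0.18, limma adjusted p = 0.470). A second set (1418262_at) differed by -0.24 (limma adjusted p = 0.372), again with the lowest value, 11.06, in menin-deficient replicate 1.

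A further Syk set (1457239_at) fell clearly. It held 11.67, 11.47, 11.05 and 11.60 in control and 10.44, 10.77, 10.28 and 10.59 in menin-deficient arrays, with no overlap. The difference was -0.93, a 1.90-fold fall (SE 0.16, 95% interval -1.31 to -0.55, limma adjusted p = 0.0143 with every probe set tested, and 0.0082 after centring). The dimmest set (1425797_a_at) had a control mean of 7.49 ± 0.35 (SD, n = 4) and held 5.59, 6.63, 6.71 and 7.47 in menin-deficient arrays (difference -0.90, SE 0.39, limma adjusted p = 0.177), where the groups overlapped through menin-deficient replicate 4. Without menin-deficient replicate 1 this difference was -0.56, that of the brightest set -0.025 and that of 1418262_at -0.12, while 1457239_at stayed at -0.90 (limma adjusted p = 0.0330). All 4 sets thus had a negative difference and 1 of 4 was called. Which part of Syk each probe set matches was not analysed here. Syk minus Btk within arrays, on the brightest sets, differed by -0.12 (exact two-sided permutation p = 0.43, adjusted p = 0.60 over 3 comparisons).

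**Figure D2:**
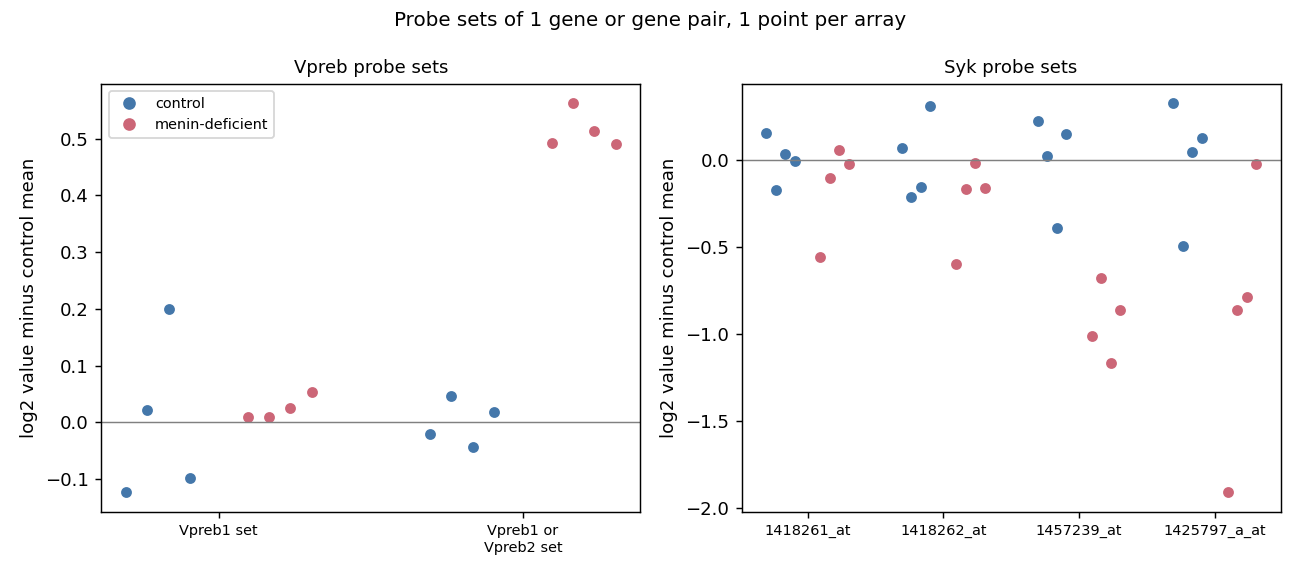
Log2 value minus the mean of the 4 controls for the Vpreb probe sets (left) and the 4 Syk probe sets from brightest to dimmest (right), 1 point per array (blue control, red menin-deficient). The shared Vpreb set separates the groups by 0.51 while the Vpreb1 set does not, and Syk set 1457239_at separates them by -0.93 while the 2 brighter sets overlap.

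At the gene level 3 of 9 tested members were called, all higher (Igll1, Vpreb3 and Blnk), where 16.2% of all tested genes were called higher, 5.17% lower and 21.3% in either direction. The groups did not overlap in 3 of 9 members, against 26.3% of all tested genes. Among the 17 member probe sets past the filter, 2 were called higher (the shared Vpreb set and Vpreb3) and 1 lower (a Syk set), where 9.34% of all probe sets past the filter were called higher, 4.87% lower and 14.2% in either direction. Groups did not overlap in 5 of these 17 sets (29.4%), against 21.4% of all. These shares rest on few members and are not read as particular to them. The median difference over the 9 members was 0.14, and over all tested genes 0.11.

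The gene-level calls did not hold under another scaling. Menin-deficient arrays had a 0.13 higher median over the tested genes, and with that offset removed limma called none of the 9 members, with 2 at an unadjusted p under 0.05, while 7.67% of all tested genes were called higher and 8.17% lower. At the probe set level the rise of the shared Vpreb set and the fall of Syk set 1457239_at stayed past the threshold, and Vpreb3 did not (limma adjusted p = 0.0625). There 4.69% of all probe sets were called higher, 8.29% lower and 13.0% in either direction. Over all tested genes 15.8% were called in either direction after centring.

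**Figure D3:**
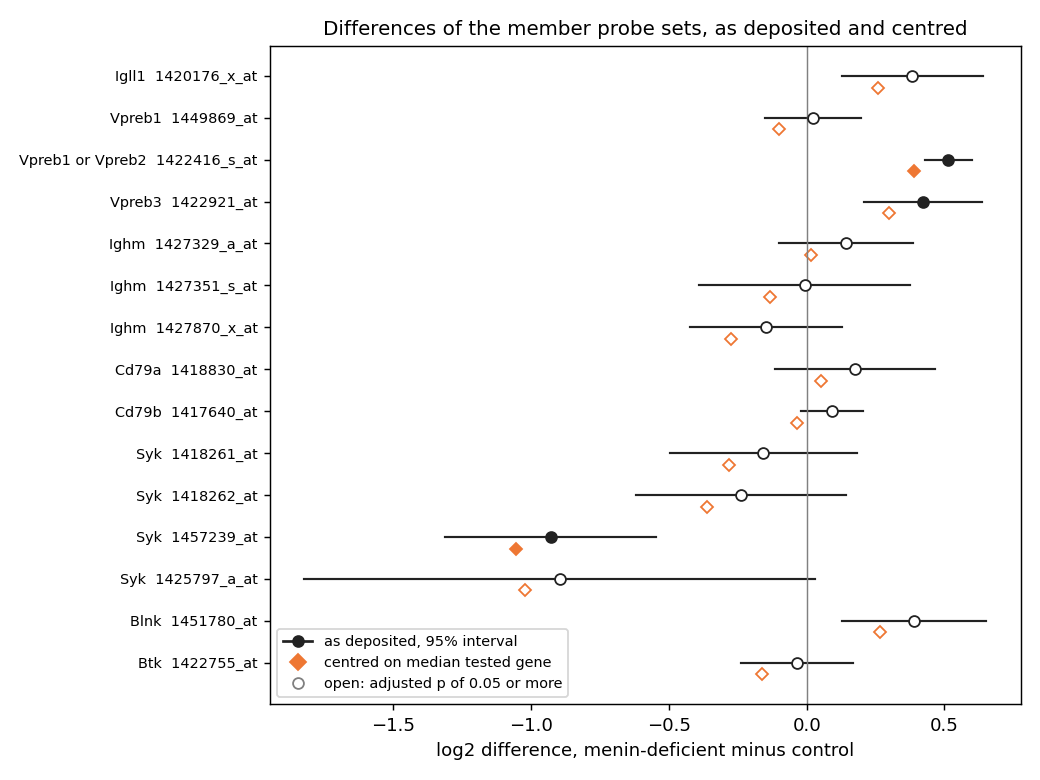
Log2 differences (menin-deficient minus control) of the 15 member probe sets with a mean above 4, as deposited with 95% intervals (black circles) and after centring on the median tested gene (orange diamonds). Filled symbols have a limma adjusted p under 0.05 over all probe sets: the shared Vpreb set and Syk set 1457239_at are filled under both, Vpreb3 only as deposited.

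Genes around the pre-BCR were followed in 7 lists by role. Of 108 genes listed, 96 were tested, 13 were higher and 9 lower (22.9% called against 21.3% of all tested genes). After centring on the median tested gene 7 were higher and 14 lower. Over all tested genes 16.2% were called higher and 5.17% lower as deposited, and 7.67% and 8.17% after centring. Of 15 tested factors known to activate surrogate light chain genes or their programme, Lef1 rose (0.57, SE 0.08, limma adjusted p = 0.0062) and 14 did not pass. Ebf1 differed by 0.06 and Pax5 by -0.07. For Tcf3, which encodes E2A, the brightest set differed by 0.27 (limma adjusted p = 0.0828), and its other sets rose by 0.48 and 0.63 when every probe set was tested.

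Among 8 silencers of these genes and Id proteins, 2 rose and 1 fell, with a median difference of 0.01. Ikzf3, which encodes Aiolos, a silencer of Igll1 in pre-B cells, held 11.57, 10.89, 11.27 and 11.10 in control and 10.22, 10.29, 10.15 and 10.68 in menin-deficient arrays, without overlap (-0.87, SE 0.17, limma adjusted p = 0.0153). Ikzf2, which encodes Helios, rose by 0.60 and Id3, an inhibitor of E proteins, by 0.31 (limma adjusted p = 0.0282 and 0.0389), calls that were lost under 8 and 11 of 19 alternatives. Ikzf1, which encodes Ikaros, differed by -0.14 (limma adjusted p = 0.186). After centring none of this list was higher and 2 were lower.

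Of 8 tested kinases and phosphatases, Fyn, a SRC-family kinase, rose by 0.64 (SE 0.09, limma adjusted p = 0.0056) and 7 did not pass. Zap70, the relative of Syk, held a control mean of 6.09 and a menin-deficient mean of 6.97 (difference 0.88, limma adjusted p = 0.0748). Among 19 tested adaptors 4 rose and 2 fell, with a median difference of 0.12. The rises included Lcp2, which encodes SLP-76, the relative of SLP-65 in T cells and myeloid cells. It held 8.20, 7.93, 8.74 and 9.04 in control and 10.09, 9.95, 10.42 and 10.04 in menin-deficient arrays (1.65, SE 0.25, limma adjusted p = 0.0067), without overlap. Lat, the membrane scaffold of T cells, rose by 1.76 and Sh2b2 by 1.82 (limma adjusted p = 0.0040 and 0.0009), the latter from a control mean of 3.97. Lat2, the scaffold of B cells and mast cells, rose by 0.49 at a low level (limma adjusted p = 0.0477) and lost this call under 13 of 18 alternatives. Cblb, a ubiquitin ligase that restrains receptor signals, fell by 0.71 on its brightest set, while its other sets differed by -0.15 and -0.05, and Sh3bp2 fell by 0.45.

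Some markers of other blood cells also rose, where 16.2% of all tested genes were called higher. Of 5 tested T cell markers, Lat among them, 4 rose, and the mean of the list ran from 5.90 to 6.21 in control and from 7.29 to 7.55 in menin-deficient arrays. Besides Lat, the rises were Thy1 (control mean 7.24, menin-deficient mean 9.89) and the T cell receptor subunits Cd247 (4.77 and 5.89) and Cd3g (3.95 and 4.73). Cd8a did not pass (limma adjusted p = 0.243). The receptor subunits Cd3e and Cd3d and the T cell genes Cd4 and Trat1 did not exceed 2.18 on any array, near the lowest value of the table. Of 8 NK cell markers 3 rose, with a list mean of 6.03 to 6.39 against 6.74 to 7.46, and of 9 monocyte and macrophage markers 4 rose (7.12 to 7.50 against 7.09 to 8.40). Of 8 neutrophil markers limma called none, of 11 plasmacytoid dendritic cell markers 2 rose and of 6 erythroid markers 1 rose. Of 8 mature B cell markers 2 rose, Cd37 (0.47) and Cxcr5 (1.47), and none was called lower. The median difference of the mature B cell list was nonetheless negative, at -0.32. Over all tested genes 5.17% were called lower. Of 7 plasma cell markers 2 rose, Mzb1 (0.34) and Ssr4 (0.23), and 2 fell, Jchain (-2.85) and Sdc1 (-1.16). After centring, 3 T cell, 3 NK cell, 2 monocyte and macrophage and 2 plasmacytoid dendritic cell markers were called higher. No neutrophil, erythroid or plasma cell marker was then called higher, and 2 plasma cell markers were lower. Of the mature B cell markers 1 was higher and 1 lower, where 7.67% of all tested genes were higher and 8.17% lower. The part of such other blood cells in the rises of Lat and Lcp2 was not tested.

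Of 25 tested effectors downstream of SYK and SLP-65, 4 rose and 1 fell, with a median difference of 0.14. Prkcd, a protein kinase C, rose by 0.59 on its brighter set (limma adjusted p = 0.0032) and differed by -0.02 on the other. Nfatc2 rose by 1.37 and kept its call under all 19 alternatives, at 0.68 when its probe sets were averaged. Plcg1 rose by 0.49, Itpr3 by 0.36, and Pik3r1, the regulatory subunit of phosphoinositide 3-kinase, fell by 0.22, but these lost their calls under 12, 13 and 13 of 19 alternatives. Averaged over its probe sets Pik3r1 was at 0.016, and Itpr3 was at 0.23 after centring on the median tested gene. Plcg2, the phospholipase that BTK activates, differed by 0.26 (limma adjusted p = 0.154).

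Of 13 tested genes listed as targets of the receptor, 4 fell, 1 rose and 8 did not pass, with a median difference of -0.32. Over all tested genes 5.17% were called lower and 16.2% higher. After centring 7 of the 13 were lower, where 8.17% of all tested genes were. Of 7 tested markers of the pre-B stage, 1 fell and 6 did not pass, with a median difference of 0.02. Egr1, an early response factor, fell by 0.61 (SE 0.09, limma adjusted p = 0.0054). Il2ra, which encodes CD25, a marker of pre-B cells, held 9.98, 9.05, 9.27 and 9.60 in control and 8.54, 8.58, 8.60 and 8.71 in menin-deficient arrays (-0.87, SE 0.19, limma adjusted p = 0.0206), without overlap. Cd69 fell by 0.51. Bcl2l1, a survival gene, fell by 0.42 on its bright set, while its dim set differed by 0.50 (limma adjusted p = 0.138) and the mean of both by 0.044. Ccnd2, a G1 cyclin, rose by 0.60 with overlapping groups (limma adjusted p = 0.0457). It lost this call under 14 of 19 alternatives and was at 0.18 when its probe sets were averaged. Of 8 inhibitory co-receptors, Btla fell by 0.54 (limma adjusted p = 0.0383, lost under 10 of 19 alternatives) and 7 did not pass, among them Cd22 (-0.59, limma adjusted p = 0.0544).

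**Figure D4:**
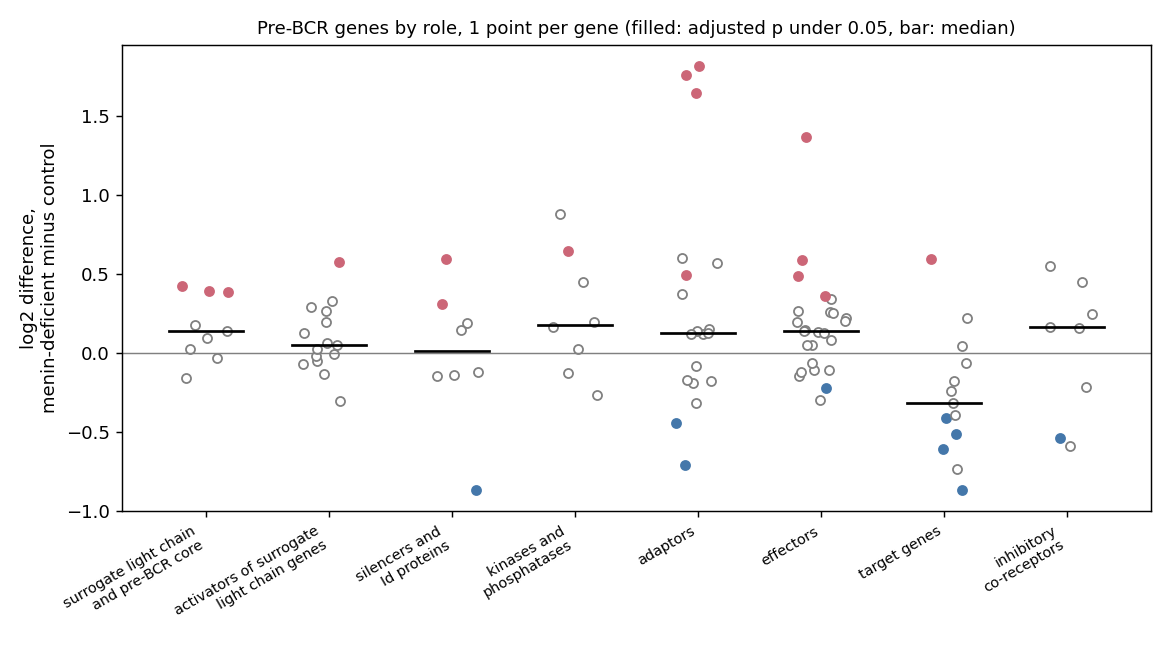
Log2 differences (menin-deficient minus control) of the 9 tested members and of the genes of 7 lists around the pre-BCR, 1 point per gene, with the median as a bar. Filled points have a limma adjusted p under 0.05 (red higher, blue lower): the target genes have 4 falls and a median of -0.32, and the members 3 rises and a median of 0.14. Over all tested genes 5.17% were called lower and 16.2% higher.

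Genes with the most similar pattern within groups were found by Pearson's r over the 8 arrays' deviations from their group means, as a description. For Igll1 these were Nrtn, Synj2bp and Gal (r = 0.995, 0.994 and 0.993), of which Nrtn and Gal lay near background with means of 3.22 and 2.92. For Vpreb1 they were Il3ra, Fntb and Cd5l (r = 0.990, 0.987 and 0.982), and for Syk Ces5a, Faap20 and Eloa (r = 0.984, 0.976 and 0.971). Without the 2 arrays farthest from the median of the member, r was between 0.968 and 0.984 for Igll1, 0.912 and 0.940 for Vpreb1 and 0.862 and 0.875 for Syk. These genes were picked for the highest r among all tested genes on the same arrays. High r values thus follow from that choice, and they cannot test a likeness.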

How the data were processed

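Total RNA of 8 sorted pro-B samples was amplified, labelled with biotin and hybridised to mouse whole-genome arrays, per the labels' protocols. The deposited values are log2 signals, judged from their range of 2.08 to 17.4. MAS5 and GCRMA are named in the submitters' processing notes. Which one applies was not given in the sources used here. Their floor compresses low signals.

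Groups come from the titles. Probe sets above their array's 40th percentile (2.09 to 2.10, close to the floor) in 4 or more of 8 arrays entered the tests (26790), and the brightest with 1 gene symbol stood for each gene (11885). The test was limma 3.58.1 (lmFit, eBayes; R 4.3.3) without covariates, adjusted by Benjamini-Hochberg over all features. Plots used matplotlib 3.10.9. The fit was tested on simulated data. The labels call the samples biological replicates. Their number limits the precision.

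Members, lists and tests were chosen with earlier results of these data known, and motifs after the sequences were seen. The text names every member probe set with a usable level, genes of each list that pass (up to 6, or the 2 with the lowest p) and further examples of known role, chosen after their values were seen. Alternatives were quantile normalization, 2 centrings, 2 filters, averaged probe sets per gene, leaving out _x_at and _s_at sets, a trended robust eBayes, weighted arrays, a replicate block, a sex term, and leaving out each array.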

Additional observations from a re-analysis of the deposited data

Results flagged for a closer look

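In 3 of 32 groups of 4 values examined (the member probe sets whose values spanned at least 0.05), a single array stood apart from the other 3. Chance flags about 1 in 20 groups of untied values. On Igll1 set 1420176_x_at control replicate 3 was at 15.44 and the other controls between 15.87 and 15.89. In the other 2 groups the remaining values were tied, so that any different value would stand apart, and that rate does not apply. On the dim Igll1 set 1420177_at menin-deficient replicate 4 was at 2.19 while the others held the same value of 2.33. On the dim Ighm set 1427870_x_at control replicate 2 was at 5.52 while the others held the same value of 5.83.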

How the results depend on the processing

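The count of 3 called members was 1 with quantile normalization, with centring on the median of all probe sets, without a filter and with the mean of probe sets, and 0 when centred on the median tested gene. Leaving out 1 array gave 0 to 2 called members (0 without menin-deficient replicate 2, and 1 without control replicate 1 or menin-deficient replicate 1, 3 or 4). Called member probe sets numbered 5 with a 60th percentile filter and 5 with trended and robust eBayes, and 2 to 3 without 1 array. The shared Vpreb set and Syk set 1457239_at stayed past the threshold under all 17 alternatives, with differences of 0.39 to 0.53 and -1.06 to -0.85. Vpreb3 lost its call under 3 of 19 alternatives among genes and 8 of 17 among probe sets, Blnk under 13 and Igll1 under 14 of 19. The count of called pathway genes, 22 as reported, was 14 without a filter and 15 to 23 without 1 array (15 without control replicate 1 or menin-deficient replicate 2).

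The replicate numbers are shared between the groups, but same-numbered arrays did not deviate together (correlations of -0.11, -0.31, -0.17 and 0.05 for numbers 1 to 4), so they were not taken as pairs. With the replicate block, limma called 0 members (3 at an unadjusted p under 0.05) and 12 pathway genes, and the shared Vpreb and Syk sets stayed called (adjusted p = 0.0326 and 0.0419). Calls over all genes are given here only for the reported fit and the centring on the median tested gene. Counts under the other alternatives thus stand without that share.

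Some signs turned. Without _x_at and _s_at sets Igll1 was represented by its dim set (-0.12), and Igll1 minus Vpreb1 was -0.14. Vpreb1 was at -0.0044 with quantile normalization, -0.047 and -0.10 with the centrings, and -0.017 to 0.091 without 1 array. Cd79b was at -0.034 when centred on the median tested gene. With the mean of probe sets Ighm was at -0.018, Bcl2l1 at 0.044 and Pik3r1 at 0.016. Ighm set 1427351_s_at was at 0.087 with array weights and -0.13 to 0.11 without 1 array, and Btk at -0.085 to 0.019. Without 1 array, Igll1 minus Vpreb1 ran from 0.18 to 0.44, Cd79a minus Cd79b from -0.0038 to 0.20 and Syk minus Btk from -0.21 to -0.0037. Values near 2.08 have no usable order.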
